A study of Brassica oleracea with 7 samples.

Results

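Silique, the seed pod of the cabbage family, was set against leaf in cabbage and its close kin, the species Brassica oleracea. The silique library came from pods taken 15 days after pollination and the leaf library from plants 7 weeks old. A gene entered the comparison where its level was 1 or more in silique or in leaf, in FPKM, a count of fragments scaled to the length of the gene model and the size of the library. This rule kept 26214 of the 39481 genes in the deposited table and left out 13267 that were below 1 FPKM in both tissues. The difference was expressed as the log2 ratio of (silique FPKM + 1) to (leaf FPKM + 1), a scale that understates the fold of genes with low values. Poly(A)+ RNA had been sequenced as paired ends, with 1 library for each of 7 tissues. The other 5 tissues served as context: bud of 0.8 cm length, flower open on the day of sampling, stem and root from plants 7 weeks old, and callus, a mass of dividing cells from tissue culture. All but callus came from greenhouse plants, and the labels name neither a cultivar nor a treatment. The number of plants behind each library is likewise not stated. Each tissue being 1 library, no difference has a replicate check and no p-value was computed. All statements below compare these libraries.

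A silique is a fruit. Its green wall carries out photosynthesis and encloses the developing seeds, in which embryo, endosperm and seed coat form and in which storage proteins and oil are laid down as the seed fills. A leaf is the main photosynthetic organ, and transcripts of nuclear genes for the photosynthetic apparatus are typically among its most abundant messengers. A pod sample thus mixes a green organ with seed tissues, and in such bulk RNA a larger share of cells of a type and more RNA per cell cannot be told apart. The deposited table pairs its gene IDs with no gene names, and 0 of them matched the 53125 genes of the RefSeq table for the species (assembly BOL). Genes are therefore given by ID and position, on the scaffolds of the deposited table with starts counted from 1. For the same reason the tissue labels could not be checked against marker genes, no pathway could be counted, and no role is given for any gene.

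The number of fragments behind each value was implied by the deposited intervals, and summed to 8715699 in gene models for silique and 8174621 for leaf. Behind a typical value above 0 stood a median of 69.0 fragments in silique and 80.0 in leaf. In the other 5 libraries the sums lay between 8238982 and 8778457. Silique had 23937 genes at 1 FPKM or more and leaf had 23121. Both tissues passed that level in 20844 genes, silique alone of the pair in 3093 and leaf alone in 2277.

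Most genes lay close together in the 2 organs, and the large differences were more often in favour of silique. Of the genes compared, 16976 (64.8%) were within 2-fold, and the median log2 ratio was -0.03 with quartiles of -0.69 and 0.68. At 2-fold or more, 4924 genes (18.8% of those compared) were higher in silique and 4314 (16.5%) in leaf. At 4-fold or more, the limit used from here on, 2047 genes (7.81%) were higher in silique and 1081 (4.12%) in leaf. At 16-fold or more, the numbers were 444 (1.69%) and 127 (0.484%). Silique thus held 53.3% of the genes past 2-fold, 65.4% of those past 4-fold (95% exact binomial interval 63.7% to 67.1%, treating genes as independent draws) and 73.3% of those past 8-fold. The 1st and 99th percentiles of the log2 ratio, -3.28 and 4.67, showed the same longer tail on the silique side. Across the compared genes Spearman's rho between the 2 libraries was 0.693, a description over genes, which are not independent replicates.

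**Figure D1:**
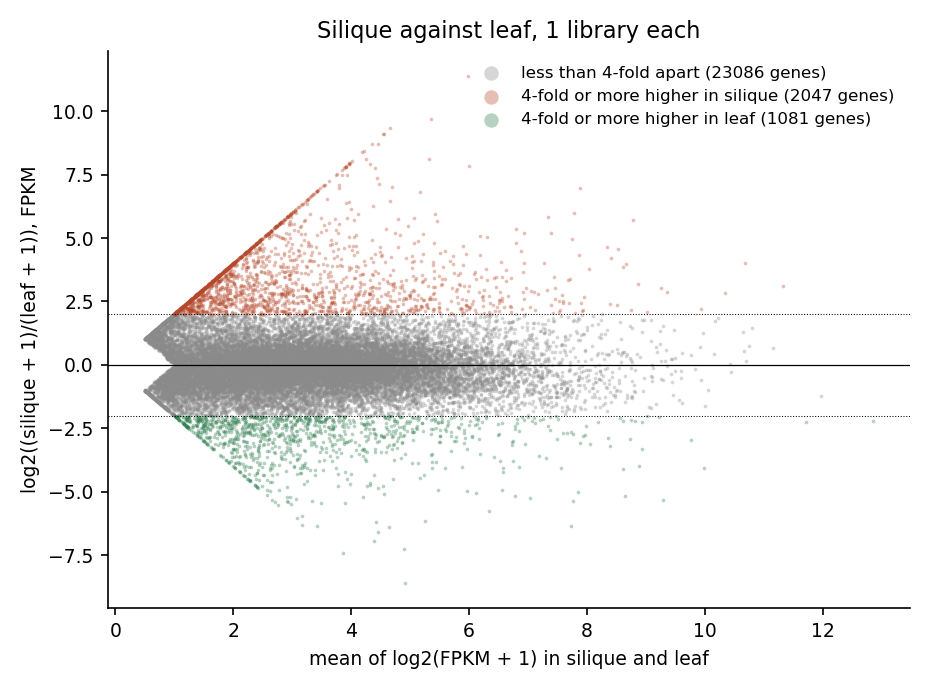
Each point is 1 of 26214 genes. The horizontal axis gives the mean of log2(FPKM + 1) in silique and leaf, the vertical axis the log2 ratio of silique to leaf, and dotted lines mark 4-fold. The slanted upper edge holds genes listed at 0 in leaf, and the upper cloud (2047 genes) is larger and reaches farther (up to 11.39) than the lower one (1081 genes, down to -8.58).

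On the scale used, large differences were more frequent among abundant genes, and the balance of the 2 directions changed with level. The added 1 FPKM shrinks ratios at low levels, so the rise with level follows in part from the scale. The shares by level were not recomputed with a smaller pseudocount. Where the higher of the 2 values was 1 to 5 FPKM, 3.21% of 8190 genes were 4-fold higher in silique and 1.15% in leaf, though a gene needs 3 FPKM to pass the limit at all. Between 10 and 50 FPKM the shares were 8.80% and 5.42% of 9708 genes. Among the 173 genes that reached 500 FPKM, 44 (25.4%) were higher in silique and 39 (22.5%) in leaf, so the excess of silique genes seen at lower levels was small at the top of the range.

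By amount of RNA, the silique-higher genes made up a larger part of their own library than the leaf-higher genes did of theirs. The silique-higher set also holds more genes, and the part of set size in this was not tested. Each set was chosen on these same values, so a larger share in its own library than in the partner follows from the rule. The 2047 silique-higher genes held 23.7% of the summed FPKM of silique and 1.98% of that of leaf. The 1081 leaf-higher genes held 18.2% of the summed FPKM of leaf and 2.33% of that of silique. Counted in implied fragments, the shares were 20.0% of silique for the first set and 13.9% of leaf for the second. Of the 100 most abundant genes of silique 42 were silique-higher, 33 were within 2-fold of leaf and 2 were leaf-higher. Of the 100 most abundant of leaf 36 were leaf-higher, 33 within 2-fold and 1 silique-higher. Over all compared genes, 7.81% were silique-higher, 4.12% leaf-higher and 64.8% within 2-fold. Each list is ranked by a value that also enters the ratio, so genes higher in that organ are favoured in it by construction. The 2 lists of 100 shared 37 genes, which is 37.0% of each.

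The most abundant gene of silique was Bol025304 (Scaffold000088, 708026 to 709393), with a coding length of 360 bases. It was at 7548 FPKM in silique, 6185 in flower, 5554 in bud, 4024 in stem, 875 in leaf, 244 in callus and 12.5 in root. Its log2 ratio of silique to leaf was 3.11 (3.05 to 3.17 from the deposited interval bounds), and it was also abundant in leaf, where it ranked 43rd. Bol040169 (Scaffold000014, 754017 to 754986) came next, with 6609 FPKM in silique against 409 in leaf, a log2 ratio of 4.01 (3.95 to 4.08). It was higher still in stem, at 9211 FPKM, and close to absent in root, at 2.37 FPKM. Both loci overlap a neighbouring locus, and since no step that marks strand is named in the labels' protocols, their reads cannot be told apart from those of the neighbour.

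In leaf, Bol017820 (Scaffold000143, 929116 to 929873) stood first at 16016 FPKM, more than any other gene of the pair of libraries. It was at 3998 FPKM in bud, 3451 in silique, 2821 in stem, 1364 in flower, 388 in callus and 44.9 in root. It was therefore also the 4th most abundant gene of silique, with a log2 ratio of -2.21 (-2.24 to -2.18). The next leaf gene, Bol034788 (Scaffold000038, 2103179 to 2104462), was at 7331 FPKM in leaf, 4348 in root and 1544 in silique, a log2 ratio of -2.25. Steady genes of high level were found too. Bol020682 (Scaffold000121_P2, 147342 to 148107) had 1758 FPKM in silique, 1568 in leaf and 1746 in root, but 108 in flower. Bol027659 (Scaffold000076, 1226218 to 1227136) was at 1392 and 1361 FPKM in silique and leaf, a log2 ratio of 0.03 (-0.02 to 0.09), and was at 1039.7 FPKM or more in each of the 7 tissues.

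Among genes of 10 FPKM or more, the widest difference in favour of silique was that of Bol015488 (Scaffold000164, 210824 to 211414). Silique had 3260.0 FPKM (deposited interval 3207 to 3313) and leaf 0.218 FPKM, where 1 fragment was implied, a log2 ratio of 11.39 (10.92 to 11.69). Stem had 1052 FPKM of it, callus 182, flower 103 and bud 3.52, and it was listed at 0 in root. Bol004744 (Scaffold000316, 332592 to 334645) had a different profile, at 1184 FPKM in silique, 0.414 FPKM in leaf on 8 fragments, 1.99 FPKM in stem and 0.105 FPKM or less elsewhere. The first gene was thus shared with stem, callus and flower, and the second was near 0 in each of the other 6 libraries.

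The widest difference in favour of leaf was smaller. Bol038487 (Scaffold000020_P1, 55911 to 57532) reached 590.0 FPKM in leaf against 0.545 in silique, on 10 fragments, a log2 ratio of -8.58 (-8.97 to -8.26). It was high as well in callus (354 FPKM) and root (280.2 FPKM), and low in bud (7.90), flower (1.04) and stem (0.442). Bol025768 (Scaffold000085, 460 to 1244) was at 188 FPKM in leaf, 50.7 in bud, 12.5 in stem, 1.30 in flower and 0.395 or less in callus, root and silique, a log2 ratio of -7.40. Both leading leaf genes were thus high in at least 1 other tissue as well.

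**Figure D2:**
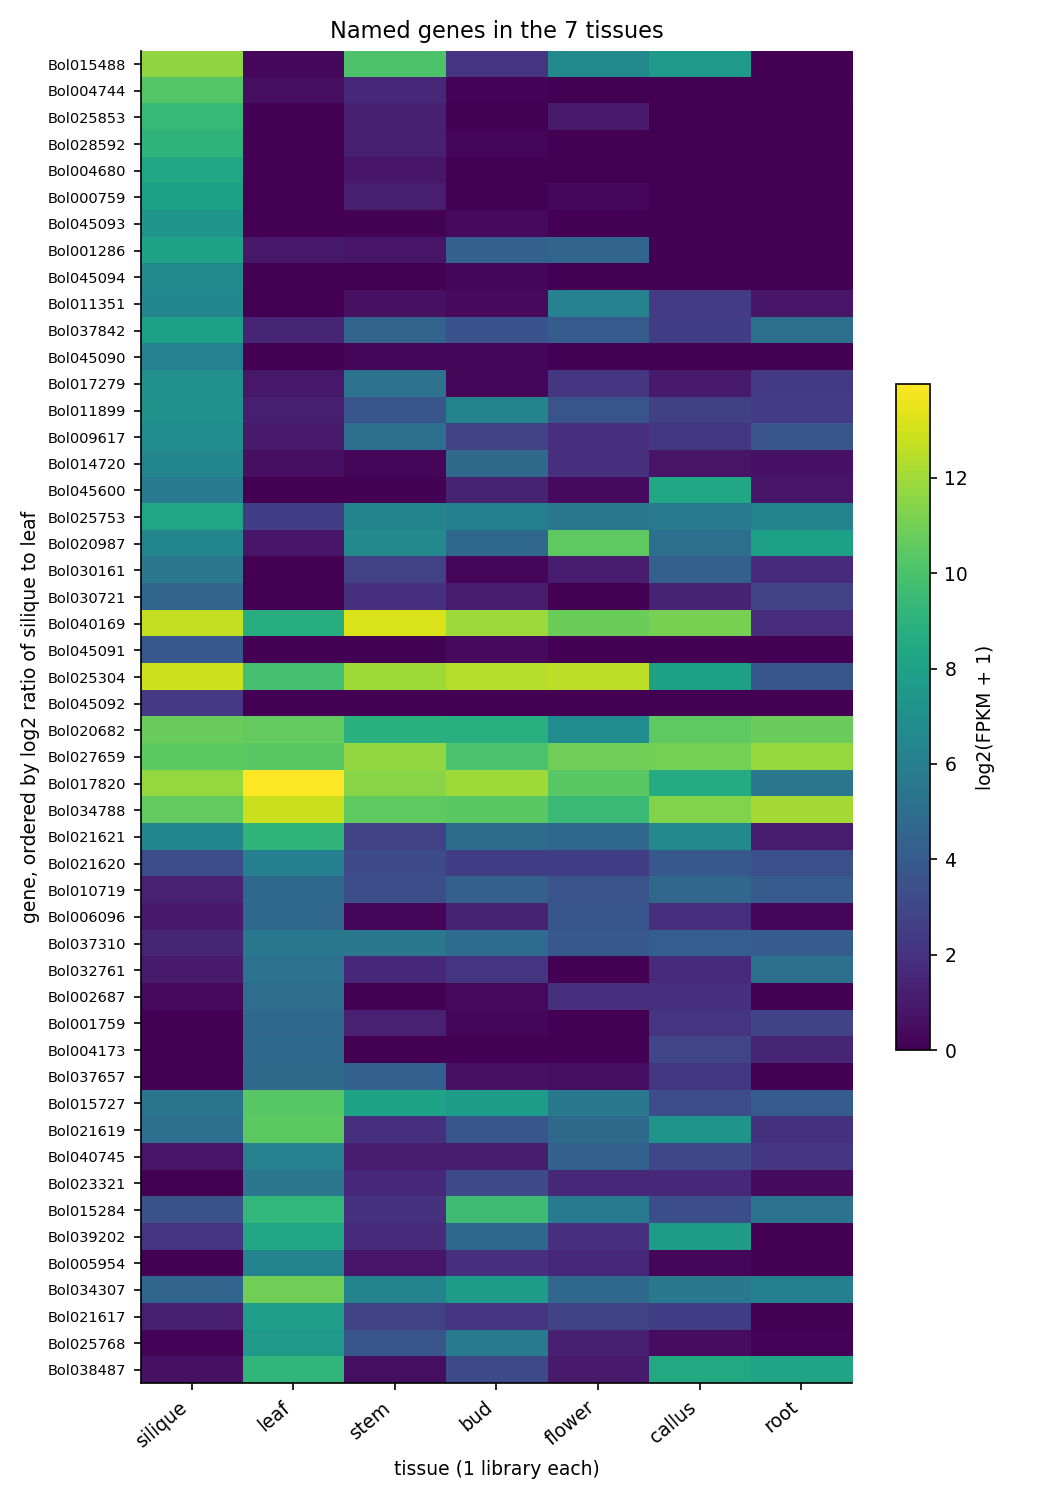
The heat map shows the genes named in the text except those at the 4-fold limit, ordered from the highest to the lowest log2 ratio of silique to leaf, with the 7 tissues as columns and log2(FPKM + 1) as colour. Bol015488 leads at the top with stem, flower and callus also bright, whereas Bol004744 is bright in silique alone, and Bol038487 at the bottom is bright in leaf, callus and root.

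Genes found in one organ and listed at 0 in the other were more numerous on the silique side. At 1 FPKM or more in silique, 1297 genes were listed at 0 in leaf, which is 5.42% of the genes detected in silique. In the other direction 321 genes, 1.39% of those detected in leaf, were listed at 0 in silique. Leaf also had more listed zeros over the whole table, 9986 of 39481 genes against 7738 in silique. Depth limits what a listed 0 means, because 3 fragments would have been 0.993 FPKM in leaf for the short gene Bol025853 and 0.155 FPKM for Bol004744. The silique genes listed at 0 in leaf had a median of 3.58 FPKM and 43.0 fragments, and 354 of them had 100 fragments or more. The leaf genes listed at 0 in silique had a median of 1.90 FPKM on 14.0 fragments, and 31 had 100 or more. Of the 1297 genes, 260 were listed at 0 in all 6 other libraries and 583 reached 1 FPKM in at least 1 of the 5 context tissues. Of the 321, 18 were listed at 0 in all 6 others and 189 reached 1 FPKM in a context tissue.

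The most abundant of these genes were far higher on the silique side. Bol025853 (Scaffold000085, 448362 to 448727) was at 644 FPKM in silique (615 to 673), 1.34 in stem and 0.991 in flower, and listed at 0 in leaf, bud, callus and root. Bol028592 (Scaffold000070, 662386 to 663518) reached 549 FPKM (533 to 566) in silique, against 1.31 in stem and 0.131 in bud, and listed at 0 in the remaining 4 libraries. In leaf the first of them was Bol005954 (Scaffold000289, 510148 to 510739), at 78.9 FPKM (72.5 to 85.3), with 2.76 FPKM in bud and 2.07 in flower and listed at 0 in silique and root. Bol023321 (Scaffold000100, 61794 to 63417) followed with 45.0 FPKM in leaf, 8.17 in bud and 0 in silique. In all, 32 of the silique genes listed at 0 in leaf reached 100 FPKM, and 0 of the leaf genes listed at 0 in silique did.

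The 5 context libraries, which took no part in choosing the genes, showed where else each set was expressed. Silique-higher genes had a median of 15.9 FPKM in silique and 0.331 FPKM in leaf. Their medians were close to one another in bud (3.79), stem (3.87), flower (3.95) and callus (4.35), and root, at 0.274 FPKM, lay below leaf. Leaf-higher genes had a median of 20.2 FPKM in leaf and 1.56 FPKM in silique. For them bud was next to leaf (6.06 FPKM), followed by callus (4.34), stem (3.16), flower (2.40) and root (1.60). Root had a low median for both sets, and also the lowest over all compared genes, at 4.08 FPKM against 5.24 to 8.28 FPKM in the other 6 tissues.

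**Figure D3:**
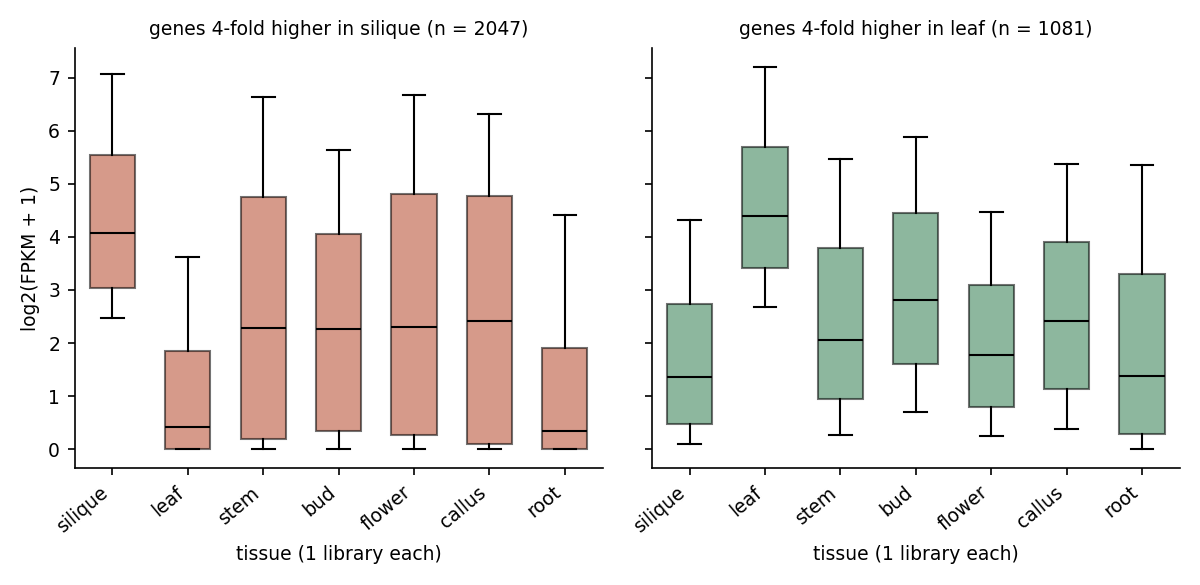
Box plots of log2(FPKM + 1) in the 7 tissues for the 2047 genes 4-fold higher in silique (left) and the 1081 genes 4-fold higher in leaf (right). Boxes span the quartiles with the median as a line, and whiskers reach the 10th and 90th percentiles. On the left, stem, bud, flower and callus have medians between 3.79 and 4.35 FPKM with wide boxes; on the right, bud has the highest median after leaf, at 6.06 FPKM.

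Silique was the highest of the 7 tissues for 1072 of its 2047 genes (52.4%), and leaf for 792 of its 1081 (73.3%). The other silique-higher genes peaked in flower (308), stem (259), callus (223), bud (96) or root (89). Leaf-higher genes that did not peak in leaf did so in callus (72), bud (70), root (70), stem (46) or flower (31). By the stricter criterion of 4-fold above each of the other 6 tissues, 559 silique-higher genes (27.3%) and 149 leaf-higher genes (13.8%) remained. Conversely, leaf was 4-fold below each of the other 6 tissues for 54 silique-higher genes (2.64%), and silique for 6 leaf-higher genes (0.555%). The share of leaf-higher genes that peaked in leaf was thus larger than the corresponding share for silique, while the share standing 4-fold clear of all others was smaller. These counts rest in part on the choice of genes, since the partner organ is 4-fold lower in every member by rule. Shares over all compared genes are not given beside them.

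Each context tissue was further placed by whether it lay nearer to silique or to leaf, that is above or below the middle of the 2 on the log2(FPKM + 1) scale. Genes were chosen for a high value in one library of the pair and a low one in the other, so a context tissue falls between them in part through that choice. For silique-higher genes, stem lay nearer to silique in 938 (45.8%), flower in 910 (44.5%), bud in 902 (44.1%), callus in 888 (43.4%) and root in 335 (16.4%). For leaf-higher genes, bud lay nearer to leaf in 459 (42.5%), callus in 347 (32.1%), stem in 275 (25.4%), root in 231 (21.4%) and flower in 180 (16.7%). Flower therefore lay on the side of silique in 44.5% of the silique-higher genes and on the side of leaf in 16.7% of the leaf-higher ones, the widest gap of the 5 tissues, and root was the one tissue whose share was larger for leaf-higher genes.

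Counting how many of the 5 tissues went with the higher organ gave differently shaped distributions. For 631 silique-higher genes (30.8%) no context tissue lay nearer to silique, and for 101 (4.93%) all 5 did. Between these ends, 258 genes had 1 such tissue, 324 had 2, 370 had 3 and 363 had 4. The commonest combination was bud, callus, flower and stem together, with root on the side of leaf, in 269 genes (13.1%). Leaf-higher genes were concentrated at the low end, with 316 genes (29.2%) at none, 326 at 1, 239 at 2, 129 at 3, 54 at 4 and 17 (1.57%) at all 5. Bud alone went with leaf in 166 of them (15.4%), callus alone in 72, callus and root in 55 and stem alone in 43. By this placing, the silique-higher genes included a group in which 4 other tissues went with silique and root with leaf. The leaf-higher genes included one in which bud alone went with leaf. Root had the lowest median over all compared genes too, at 4.08 FPKM, and its part in these patterns was not tested. Neither these counts nor the shares by tissue are given over all compared genes.

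**Figure D4:**
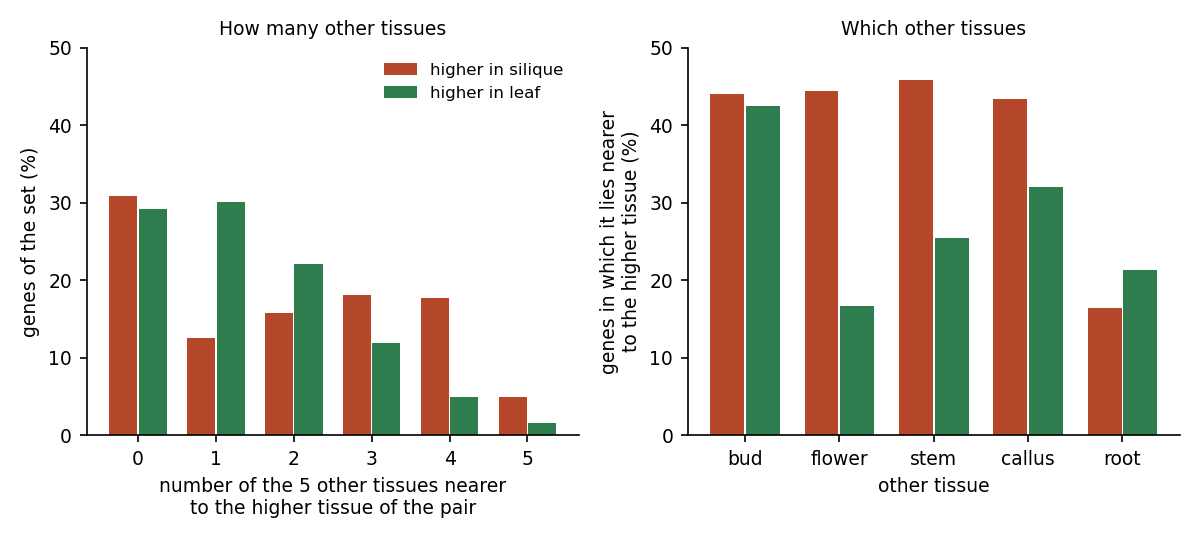
Left: percent of the 2047 silique-higher (red) and 1081 leaf-higher (green) genes by how many of the 5 context tissues lay nearer to the higher organ. Right: percent of each set in which a given context tissue lay nearer to the higher organ. Silique-higher genes have a second rise at 3 and 4 tissues (370 and 363 genes); flower differs most between the sets (44.5% against 16.7%).

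Examples from these classes showed the range of profiles behind a high ratio. With bud as the single companion, Bol011899 (Scaffold000206, 908475 to 910022) was at 136 FPKM in silique, 73.6 in bud, 12.6 or less in the other tissues and 1.22 in leaf. Bol014720 (Scaffold000171, 423162 to 426167) was at 82.6 FPKM in silique, 27.7 in bud and 0.503 in leaf. With stem alone, Bol017279 (Scaffold000148, 687593 to 688075), a gene without introns, was at 132 FPKM in silique, 35.4 in stem and 0.901 in leaf. Bol009617 (Scaffold000231, 691608 to 692225) was likewise at 113 FPKM in silique, 31.6 in stem and 1.03 in leaf. In all 4 genes the companion tissue was below silique.

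Callus and flower gave profiles in which the companion came close to silique or passed it in 2 of 4 genes. Bol045600 (Scaffold000002, 2982122 to 2986253) had 51.9 FPKM in silique but 315 in callus, and was listed at 0 in leaf. Bol030161 (Scaffold000062, 1612397 to 1614411) had 46.3 FPKM in silique and 18.5 in callus, again with leaf at 0. With flower alone, Bol011351 (Scaffold000212, 713258 to 713540) was at 89.99 FPKM in silique, 72.1 in flower and at 0 in leaf. Bol001286 (Scaffold000455, 10602 to 14653) was at 264 FPKM in silique, 22.3 in flower, 19.0 in bud and 0.867 in leaf, a log2 ratio of 7.15 (6.86 to 7.49). Root was the single companion in 10 genes, led by Bol037842 (Scaffold000023_P2, 1279492 to 1282683) at 236 FPKM in silique, 35.3 in root and 1.72 in leaf. The next, Bol030721 (Scaffold000058_P1, 27407 to 28047), was at 22.6 FPKM in silique, 5.60 in root and 0 in leaf.

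Where all 5 context tissues went with silique, leaf was the exception. Bol025753 (Scaffold000086, 1651567 to 1652183) was at 311 FPKM in silique, between 47.8 and 77.4 FPKM in the 5 context tissues and at 5.13 FPKM in leaf, on 14 fragments. Bol020987 (Scaffold000118_P1, 613811 to 614821) had 84.5 FPKM in silique and 0.794 in leaf, and its highest level was 1439.7 FPKM in flower. For both genes the deposited intervals of leaf (2.39 to 7.87 and 0.194 to 1.39 FPKM) lay below the value of each other tissue.

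On the leaf side, genes with no companion included Bol034307 (Scaffold000039, 631455 to 635664), the 8th most abundant gene of leaf. It was at 1935 FPKM in leaf, 203 in bud, 76.1 in stem, 64.0 in root, 47.9 in callus, 24.7 in flower and 22.4 in silique, a log2 ratio of -6.37 (-6.52 to -6.23). Bol021617 (Scaffold000114, 389656 to 390192) had 214 FPKM in leaf and 6.15 or less elsewhere, with 1.23 in silique. Bud was the single companion of Bol015284 (Scaffold000165, 161341 to 162111), at 599 FPKM in leaf, 781 in bud and 9.94 in silique, as it was of Bol025768, described above. Callus accompanied leaf for Bol039202 (Scaffold000018, 2908785 to 2912328), at 323 FPKM in leaf, 209 in callus and 3.54 in silique, and for Bol004173 (Scaffold000330, 375760 to 376446), at 26.2 FPKM in leaf, 6.50 in callus and 0 in silique.

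Stem was the companion of Bol015727 (Scaffold000161_P1, 195682 to 197428), at 1304 FPKM in leaf, 276 in stem, 204 in bud and 39.7 in silique. Another such gene, Bol037657 (Scaffold000024, 2795400 to 2798076), had 27.6 FPKM in leaf and 19.4 in stem and was listed at 0 in silique. Root went with leaf for Bol032761 (Scaffold000047_P1, 995970 to 996507), at 37.6 FPKM in leaf, 34.5 in root and 0.989 in silique, and for Bol001759 (Scaffold000424, 127634 to 128248), at 25.8, 6.34 and 0 FPKM. Flower did so for Bol040745 (Scaffold000012, 485593 to 487589), at 72.6, 18.9 and 0.710 FPKM in leaf, flower and silique, and for Bol006096 (Scaffold000286, 457521 to 460372), at 24.9, 12.3 and 0.957 FPKM. Silique was the exception among all 7 tissues for Bol037310 (Scaffold000025, 1220271 to 1221455), at 47.1 FPKM in leaf, 46.9 in stem, 13.1 to 28.8 in the other 4 and 1.73 in silique. Bol010719 (Scaffold000218, 294436 to 296536) was at 24.8 FPKM in leaf, 9.42 to 23.3 in the 5 context tissues and 1.42 in silique.

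Gene models without introns made up a small part of both sets, and how their share reads depends on the genes it is set against. The deposited values implied a coding length, without UTRs, for 26107 of the compared genes, and a gene was called intronless where that length matched the span of its locus. Of 2036 silique-higher genes with a length, 144 were intronless (7.07%, 95% exact interval 5.997% to 8.27%), and of 1074 leaf-higher genes 24 were (2.23%, 1.44% to 3.31%). The share was 1.60% over all compared genes, 17.4% over the genes left out as below 1 FPKM in both tissues, and 6.33% (2362 of 37309) over the whole table. The silique-higher share was thus larger than that of the compared genes and close to that of the table. The intervals treat genes as independent draws and are no test between these shares. Of the 2362 intronless genes of the table, 1945 were below 1 FPKM in both tissues and could not enter either set. Of the 417 intronless genes compared, 263 reached 1 FPKM in silique alone of the pair and 96 in leaf alone, so most entered through the one library in which they were high. Over the whole table, 6.10% of the 2362 intronless genes and 5.41% of the 34947 genes with introns were 4-fold higher in silique. The shares 4-fold higher in leaf were 1.02% and 3.005%.

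The 144 intronless silique-higher genes were for the most part low or listed at 0 elsewhere. Their median was 9.70 FPKM in silique, on 96.8 fragments, and 0 in each of the other 6 tissues, and 120 of them stood 4-fold above all 6. Leaf was listed at 0 for 130, root for 122, bud and callus for 112 each, flower for 106 and stem for 74. A listed 0 was common among all 2362 intronless genes too. It held for 70.9% of them in leaf, 59.3% in root, 63.0% in bud, 50.3% in callus, 68.8% in flower and 68.9% in stem. The zeros in leaf also follow in part from the rule that chose the genes. The number standing 4-fold above all 6 follows in part from that rule and from these common zeros. No share over all intronless genes is given beside it. The 2 with the largest ratios among those of 10 FPKM or more were Bol004680 (Scaffold000317, 204548 to 205522), at 333 FPKM in silique (323 to 343), and Bol000759 (Scaffold000502, 12474 to 12761), at 245 FPKM. Stem had 0.827 and 1.27 FPKM of these genes, and each was listed at 0 in leaf, bud, callus and root. Among the 24 intronless leaf-higher genes the median was 9.01 FPKM in leaf, 1.47 in callus and 1.19 in root, and the leading ones were Bol004173, described above, and Bol002687 (Scaffold000379, 212296 to 213066), with 30.4 FPKM in leaf against 0.281 in silique.

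The number of intronless genes detected differed between the libraries over the whole table as well. It was 321 in silique and 154 in leaf, with 58 in both, and 389 in callus, 317 in root, 180 in stem, 109 in flower and 79 in bud. These were 1.35% of the detected genes with a length in silique and 0.669% in leaf, and intronless genes held 0.543% and 0.120% of the fragments in gene models. Of the gene numbers between the lowest and the highest ID, 6361 are missing from the rows used here, and it is not known if those genes lack introns. The part of the library preparation in this difference was not tested.

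Genes with large differences were shorter than the rest. The median coding length was 915 bases for silique-higher genes, 813 for leaf-higher genes, 1107 for genes within 2-fold and 1032 over all compared genes. The share of 4-fold differences was lower in longer genes in both directions, from 10.8% higher in silique and 7.13% higher in leaf below 300 bases to 2.64% and 1.23% from 2400 bases upward. The median stretch of the locus outside the coding part, which holds introns, was 579 bases for silique-higher genes, 474 for leaf-higher genes and 873 for genes within 2-fold. Overlap with a neighbouring locus was about equally frequent, at 8.26% and 7.31% of the 2 sets and 9.16% of all compared genes. Shorter genes rest on fewer fragments at a given FPKM, and the part of depth in the relation with length was not tested.

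Some of the genes lay side by side. Adjacent rows on a scaffold were both silique-higher in 178 pairs and both leaf-higher in 61, of which 164 and 52 had loci that did not overlap, and 86 adjacent pairs went in opposite directions. Pairs of the same direction took in 330 silique-higher genes (16.1%) and 117 leaf-higher genes (10.8%). Of the compared neighbours of silique-higher genes, 13.04% were silique-higher, against 7.81% of all compared genes, and of the compared neighbours of leaf-higher genes 8.51% were leaf-higher, against 4.12%. Neighbours here are successive rows, between which further genes may lie.

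The longest silique run of highest summed level held 5 genes on Scaffold000001_P2, between 3159618 and 3174930. Bol045090 was at 69.1 FPKM in silique, Bol045091 at 13.6, Bol045092 at 3.97, Bol045093 at 152 and Bol045094 at 99.5 FPKM. All 5 were listed at 0 in leaf, flower and root, and none passed 0.296 FPKM in bud, callus or stem. Each has a coding length of 546 bases in a locus of 835 bases, and the starts of the first 4 are 3489 bases apart, with 4011 bases to the fifth. Their values are uncertain as separate levels, because genes of equal length at equal distance may be near-identical copies, sequences were not used here, and how reads that match several copies were assigned is not given in the sources used here. A second run of 5 silique-higher genes was lower in summed level.

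The leaf run of highest summed level, 1 of 5 runs of 3 genes, lay on Scaffold000114 between 395693 and 400216. Bol021619 had 1393 FPKM in leaf and 32.9 in silique, a log2 ratio of -5.36 (-5.66 to -5.10). Bol021620 was at 64.6 and 8.90 FPKM, and Bol021621 at 556 and 83.9 FPKM. Bol021617, the leaf gene with no companion named above, lies upstream on the same scaffold, with 1 row between it and this run. The locus of Bol021619 overlaps those of Bol021620 and Bol021621, which do not overlap each other, so reads of the first may be counted for the others and the reverse. Both Bol021619 and Bol021621 have a coding length of 303 bases and were high in callus as well, at 146 and 95.9 FPKM, and at 3.14 and 1.21 FPKM in root.

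At the limit of 4-fold itself, genes on either side were alike. Just inside on the silique side were Bol035623 (16.2 FPKM in silique and 3.30 in leaf) and Bol025074 (105 and 25.4 FPKM), and just outside were Bol031102 (147 and 36.0 FPKM) and Bol039365 (37.6 and 8.66 FPKM). On the leaf side Bol044522 (42.5 FPKM in leaf and 9.88 in silique) and Bol027246 (14.3 and 2.82 FPKM) were just inside, and Bol025571 (134 and 32.8 FPKM) and Bol031935 (38.8 and 8.97 FPKM) just outside. The log2 ratio range from interval bounds crossed the limit for all 8.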

How the data were processed

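FPKM values and their lower and upper bounds were used as deposited by the authors, per the file headers, which also tie each column to a tissue. TopHat 1.0.13 appears, with no role given, in the submitters' processing notes; for the quantifier, genome build and annotation the entry is: not given in the sources used here. Implied fragments were 4 times the squared ratio of FPKM to its distance from the upper bound, and 83.5% of 215412 values above 0 came out whole within 0.02. In 64 genes an interval was too narrow for this, implying more fragments than the whole locus could hold, and those values (29 in silique, 34 in leaf) were left out of all fragment numbers. Genes spanning their whole length gave each column's divisor and so each gene's length, a multiple of 3 in 99.6% of 37309 genes, hence coding lengths; intronless meant within 0.2% of the locus span. The intervals, with bounds read as 2 standard deviations of a count, cover counting error only. No marking of PCR copies is named in the sources used here.

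Differences used a pseudocount of 1 FPKM and a 4-fold limit; Python 3.11.15, numpy 2.4.6, pandas 2.3.3 and scipy 1.17.1 were used, and the steps were tested on simulated fragments. Genes, settings and rules were chosen with earlier results of these data known. Named genes had 10 FPKM or more in the higher organ, except members of runs, and were the leading 2 by ratio, level or class, or next to the limit.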

Additional observations from a re-analysis of the deposited data

How the results depend on the processing

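No paired analysis was possible because only 1 library exists per tissue. Recomputed counts and shares of the main comparisons stayed close to the reported ones in 59 cases (a factor of 1.5 for counts, the binomial interval for shares) and moved further in 19. Adding 0.1 FPKM in place of 1 left 3457 genes 4-fold higher in silique and 2150 in leaf (61.7% in silique), and the genes with all 5 context tissues on the side of the higher organ numbered 326 and 67. At 2-fold the numbers were 4924 and 4314 (53.3%), with 5.08% of the silique-higher genes intronless and 786 and 593 neighbouring pairs, and at 8-fold 965 and 351 (73.3%). The share higher in silique was 68.6% after trimmed mean rescaling and 62.1% after rescaling to the fragments in gene models, which moved the median log2 ratio from -0.03 to 0.05 and -0.11, and silique held the larger number under every setting tried. Genes listed at 0 in leaf numbered 539 at 5 FPKM or more, and those listed at 0 in silique 57, or 208 with at least 10 fragments. Filters of 0.5 FPKM or none left the 4-fold counts equal, because a gene needs 3 FPKM to pass. These cases are among the 59 but could not have moved. Of the recomputed ratios of named genes, 65 stayed within their interval range and 51 moved. Another pseudocount cannot change the sign of a ratio, so the direction was not put to a check there. Leaving out intronless genes from the classes by context tissue, a setting chosen after the data were seen, gave 504 in place of 631 silique-higher genes without a companion.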

Other observations

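Silique and leaf, where they resembled each other, differed most often from root in deposited FPKM. Of the 16976 genes within 2-fold between the pair, 1018 were at least 4-fold higher in both silique and leaf than in root, against 314 for flower, 190 for callus, 156 for stem and 64 for bud. In the other direction, 675 were at least 4-fold lower in both than in root, 570 than in callus, 329 than in stem, 279 than in flower and 143 than in bud. Trimmed mean rescaling shifted root by 0.383 and callus by -0.421 in log2, against -0.132 for silique and -0.219 for leaf. These counts were not recomputed after rescaling, so the part of scaling in them was not tested. Root also had the lowest median over all compared genes, at 4.08 FPKM. Shares over all compared genes are not given beside these counts, so they are no trait particular to genes alike in silique and leaf. No gene within 2-fold between silique and leaf (0 of 16976) was 4-fold above all 5 other tissues in both.

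Silique-higher genes that peaked elsewhere had median levels of 39.2 to 90.4 FPKM at their peak. In these groups the order of peak tissue, silique and leaf follows from how the genes were chosen, so only the sizes are informative. Shares over all compared genes are not given beside the 4-fold counts. The 308 that peaked in flower had a median of 69.5 FPKM there, 18.6 FPKM in silique and 1.31 FPKM in leaf, and 95 of them were 4-fold higher in flower than in silique. The 259 that peaked in stem had a median of 63.9 FPKM there and 27.4 FPKM in silique, and 22 were 4-fold higher in stem than in silique. Callus was the peak of 223, with a median of 46.6 FPKM there and 10.97 FPKM in silique, and bud of 96, with 39.2 and 11.9 FPKM, of which 75 and 20 were 4-fold higher at the peak than in silique. Root was the peak of 89, with a median of 90.4 FPKM, and 41 of these were 4-fold higher in root than in silique.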
